A study of Platynereis dumerilii with 97 samples.

Results

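The comparison covers the metatrochophore interval of the marine annelid Platynereis dumerilii: single whole embryos labelled 59, 60, 61, 63, 64 and 65 h after fertilization (n = 6) against embryos labelled 52 to 58 h (n = 7, hourly). These are 13 of the 97 embryos of a time course, chosen by their labelled hour. Per the labels' protocols the embryos came from several matings, were kept in sea water at 18 °C without any treatment and were frozen one by one; no strain is named, and nothing says which embryos shared parents. The embryo labelled 62 h was left out for its total of only 3555 transcript counts. Polyadenylated RNA of each embryo was amplified by CEL-Seq, which tags the 3′ ends of transcripts, and the deposited table gives counts for 10908 transcripts.

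The metatrochophore follows the ciliated trochophore larva and comes before the nectochaete, the larva that crawls and swims with bristled appendages. During this interval the trunk elongates, its segments take shape, and muscles, chaetae (bristles) and the nerve cord differentiate. An embryo's transcript pool is a sum over all these tissues, so a change can come from fewer or more cells of a type or from less or more RNA per cell, and these cannot be told apart here. The transcripts carry identifiers only (PT_v1_tr_ and a number), with no gene names or sequences in the files, so no marker gene of the stage could be looked up and no function is given to any transcript.

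Transcript totals ran from 388339 (56 h) to 2577933 (58 h) in the earlier window and from 547222 (63 h) to 1153911 (60 h) in the later one. Between 3390 and 7420 transcripts had at least 1 count per embryo. A floor of 3 counts lay between 1.16 and 7.73 CPM (counts per 1000000 transcript counts of the embryo) at these totals, and it covers counting error only. Each hour is held by 1 embryo, so the spread within a window holds development within the window as well as differences between embryos. All 13 embryos are numbered 51 or higher in the titles. The libraries differed around that number in the share of detected transcripts with 1 to 5 counts. It was 17.5 to 56.9% (median 27.3%) in embryos 1 to 50 and 2.82 to 24.9% (median 6.24%) in embryos 51 to 97. The ranges overlapped, but in the 13 embryos the share was only 2.82 to 7.94%, and in the 29 embryos of 66-94 h 4.47 to 8.19%. The 24.9% came from outside both of these groups. The labels name no batch. Hours to 51 h fall in embryos 1 to 50 and those from 52 h in embryos 51 to 97, except for the library labelled 24 h (embryo 95). Across 51 and 52 h, age and library set therefore cannot be told apart. Outside the 13 embryos, the libraries labelled 24, 48 and 72 h lay away from their neighbours in several of the transcripts described here. Values for windows holding the 48 h or 72 h library are given with and without it, unless stated.

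One transcript passed the test between the windows, and it was higher in the later one. PT_v1_tr_09823 stood at 74.0, 47.7, 132, 132, 216, 203 and 191 CPM in the embryos of 52, 53, 54, 55, 56, 57 and 58 h. It stood at 339, 547, 571, 800, 766 and 601 CPM in those of 59, 60, 61, 63, 64 and 65 h. Every later embryo lay above every earlier one, and the 59 h embryo was the lowest of the later window. The mean level was 142 ± 65.0 CPM (SD, n = 7) at 52-58 h and 604 ± 167 CPM (SD, n = 6) at 59-65 h, a 4.25-fold difference of means. The fitted log2 change was 2.06 with a standard error of 0.34 and a 95% interval of 1.35 to 2.77 (edgeR quasi-likelihood test, Benjamini-Hochberg adjusted p = 0.0383).

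That is 1 of 4454 transcripts tested, or 0.0225%, with none lower, and 117 transcripts had an unadjusted p under 0.05. Other tools placed the count at 1 (limma voom) and at 35 (DESeq2, 12 higher and 23 lower). The call on PT_v1_tr_09823 was kept without the embryo of 53, 57 or 59 h and lost without any other single embryo of the 13, where the adjusted p (edgeR) reached at most 0.179. Its log2 change stayed between 1.90 and 2.17 in these fits. With spike-in scaling it was 1.74 (edgeR, adjusted p = 0.173).

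The lower transcript with the smallest p did not pass the threshold. PT_v1_tr_03911 stood at 443, 291, 415, 427, 464, 248 and 217 CPM from 52 to 58 h. It stood at 152, 92.7, 104, 54.8, 25.9 and 133 CPM at 59, 60, 61, 63, 64 and 65 h. All 6 later embryos lay below all 7 earlier ones. The means were 358 ± 102 CPM (SD, n = 7) and 93.7 ± 47.2 CPM (SD, n = 6), and the log2 change was -1.90 with a standard error of 0.38 (edgeR, adjusted p = 0.193). As a slope it fell short too, at -0.23 log2 units per hour (edgeR, adjusted p = 0.0508). The slope passed under 5 of 8 other settings, with adjusted p from 0.00075 in DESeq2 to 0.0446 with plain totals. It also passed in 3 of 13 fits with a single embryo left out. The window difference passed under 1 of 12 other settings and in none of those 13 fits.

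Treating the hour as a continuous measure over the same 13 embryos answers a nearby question, namely which transcripts have a linear trend from 52 to 65 h. A single step between the windows can also give such a trend, and whether a change was steady was not tested. Of the 4454 transcripts, 6 passed (0.135%), 3 rising and 3 falling with the hour; 188 had an unadjusted p under 0.05. With scaling to the spike-ins (synthetic RNAs put into every tube), the count was again 6, now 1 rise and 5 falls, with 4 transcripts shared with the main fit. With DESeq2 size factors there were 5 rises and 8 falls, and with plain totals 5 rises and 9 falls. The slopes of the rises ran from 0.12 to 0.29 log2 units per hour and those of the falls from -0.19 to -0.28. In mean level the 3 rising transcripts lay between 248 and 1258 CPM and the 3 falling ones between 699 and 2066 CPM. Among them, 2 rises and 2 falls with the lowest p are named here, and they were picked after their values were seen.

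The steepest rise was again that of PT_v1_tr_09823, at 0.29 log2 units per hour with a standard error of 0.036 (edgeR, adjusted p = 0.000667). This slope call was kept whichever of the 13 embryos was left out, with adjusted p between 0.000608 and 0.00669 (edgeR). The slope and the window difference come from the same counts.

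PT_v1_tr_03901 rose more gently. Its CPM values were 102, 106, 146, 115, 183, 299 and 169 from 52 to 58 h. They were 144, 279, 221, 380, 665 and 418 at 59, 60, 61, 63, 64 and 65 h. Only the 3 oldest embryos exceeded every earlier one, so the windows overlapped. The slope was 0.18 log2 units per hour with a standard error of 0.034 (edgeR, adjusted p = 0.0467). That call ended without any single embryo other than that of 57 or 59 h (adjusted p up to 0.219) and with spike-in scaling (0.179). Between the windows its log2 change was 1.10 with a standard error of 0.36 (edgeR, adjusted p = 0.735).

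PT_v1_tr_08418 was the clearest fall. It was among the abundant transcripts of the earlier window, at 3926, 1759, 2800, 3043, 3103, 1780 and 1587 CPM from 52 to 58 h. At 59, 60, 61, 63, 64 and 65 h it stood at 1380, 1635, 733, 866, 343 and 333 CPM. All later embryos but that of 60 h lay below every earlier one. The slope was -0.25 log2 units per hour with a standard error of 0.034 (edgeR, adjusted p = 0.00188), and it passed whichever embryo was left out (adjusted p between 0.000445 and 0.0147). The window difference, a log2 change of -1.51 with a standard error of 0.36, did not pass in the same tool (edgeR, adjusted p = 0.328) and passed in DESeq2 (adjusted p = 0.00451), with the hour within the window as a covariate (edgeR, 0.0141) and with hours 57 to 60 left out (0.0212).

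PT_v1_tr_07423 fell alongside it at a lower level. Its CPM values were 1944, 860, 1335, 710, 1061, 595 and 663 from 52 to 58 h. They were 280, 757, 478, 227, 35.5 and 142 at 59, 60, 61, 63, 64 and 65 h. Here too the embryo of 60 h was the only later one within the earlier range. The slope was -0.28 log2 units per hour with a standard error of 0.050 (edgeR, adjusted p = 0.0425), and the call was lost without the embryo of 52, 54, 56, 58, 63 or 65 h (adjusted p up to 0.153). The log2 change between the windows was -1.65 with a standard error of 0.49 (edgeR, adjusted p = 0.537; DESeq2, 0.0259).

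**Figure D1:**
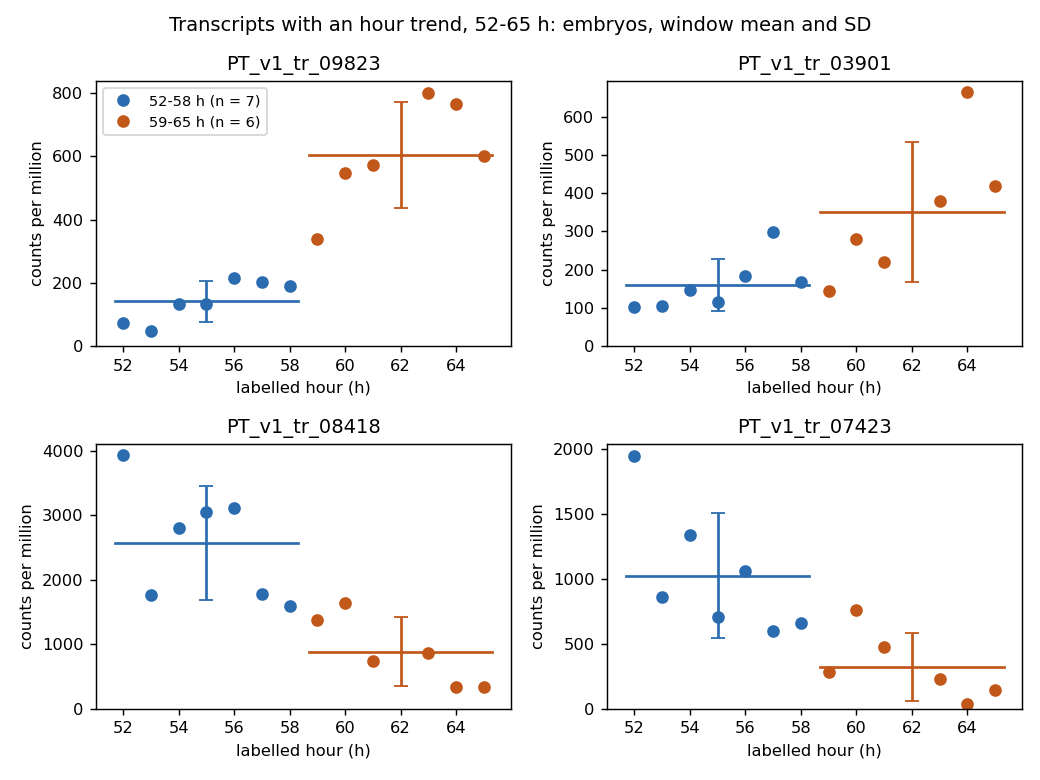
Level in CPM (y) against the labelled hour (x) for the 2 rising and 2 falling transcripts named from the hour trend; each point is an embryo, lines are window means and bars the SD (n = 7 and n = 6). PT_v1_tr_09823 lies at 216 CPM or less in every embryo to 58 h and at 339 CPM or more from 59 h, while the other 3 transcripts overlap between the windows.

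Embryos outside the 13 give values for these 4 transcripts at other hours; those of 37-51 h are embryos 36 to 50 of the other library set, with 17.5 to 28.8% of detected transcripts at 1 to 5 counts. The part of that set in the differences between 43-51 h and 52-58 h was not tested. PT_v1_tr_09823 had at most 42.7 CPM in any embryo to 23 h, 979 CPM in the library labelled 24 h, no count in any embryo of 25 to 36 h, a mean of 1.54 CPM at 37-42 h (n = 6) and 26.8 ± 35.3 CPM at 43-51 h without the library labelled 48 h (SD, n = 8; 23.8 CPM with it). It averaged 1677 ± 693 CPM at 66-74 h once the library labelled 72 h was set aside (SD, n = 8; 1492 CPM with it). It reached 2759 ± 867 CPM (SD, n = 10) at 75-84 h and stood at 1996 ± 551 CPM (SD, n = 10) at 85-94 h. Its slope over 37-51 h was 0.45 log2 units per hour (edgeR, adjusted p = 0.0461; 0.46 and 0.00413 without the library labelled 48 h). Over 66-94 h the slope was 0.0094 (edgeR, adjusted p = 1; 0.0014 and 1.00 without the library labelled 72 h).

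PT_v1_tr_03901 was lower at earlier hours too, apart from 1891 CPM in the library labelled 24 h. Its mean went from 18.2 CPM at 37-42 h to 58.7 CPM at 43-51 h without the library labelled 48 h (52.2 CPM with it), and from 528 CPM at 66-74 h without the library labelled 72 h (472 CPM with it) to 1239 ± 360 CPM (SD, n = 10) at 85-94 h. Its slope over 66-94 h was 0.055 log2 units per hour (edgeR, adjusted p = 0.0529), and without the library labelled 72 h it was 0.048 and passed (adjusted p = 0.0130).

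PT_v1_tr_08418 and PT_v1_tr_07423 both had their highest window mean at 43-51 h. Without the library labelled 48 h these means were 4542 ± 1029 CPM and 2495 ± 580 CPM (SD, n = 8 each), against 4041 and 2219 CPM with it. At 37-42 h they had been 1457 and 1117 CPM. The slopes over 37-51 h were 0.24 and 0.17 log2 units per hour without that library (edgeR, adjusted p = 0.000596 and 0.0367), and did not pass with it (adjusted p = 0.230 and 0.492). By 66-74 h the means without the library labelled 72 h were 57.7 ± 67.6 CPM and 64.7 ± 63.7 CPM (SD, n = 8 each), against 465 and 253 CPM with it. At 75-84 h, 9 of 10 embryos had no count of PT_v1_tr_08418 and 7 of 10 none of PT_v1_tr_07423. The slope of PT_v1_tr_07423 over 66-94 h was -0.32 without the library labelled 72 h (edgeR, adjusted p = 0.0130) and -0.48 with it (0.000152), while PT_v1_tr_08418 did not pass the filter on low counts there.

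Beside these values, 1.23% of 6733 transcripts passed the hour trend over 37-51 h (78 rising, 5 falling), or 7.2% of 6607 without the library labelled 48 h (315 rising, 161 falling). Over 66-94 h 1.82% of 4877 passed (6 rising, 83 falling), or 1.44% of 5146 without the library labelled 72 h. Each of these trends lies within 1 library set. Of the 3 transcripts that rose over 52-65 h, all 3 had positive slopes over 37-51 h and 2 passed; without the library labelled 48 h all 3 passed. Over 66-94 h all 3 slopes were positive and none passed; without the library labelled 72 h 2 were positive and 1 passed. Of the 3 that fell, none had a negative slope over 37-51 h with or without the library labelled 48 h, and without it 2 passed as rises. Over 66-94 h, 2 of the 3 could be tested; both slopes were negative and 1 passed, with or without the library labelled 72 h.

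**Figure D2:**
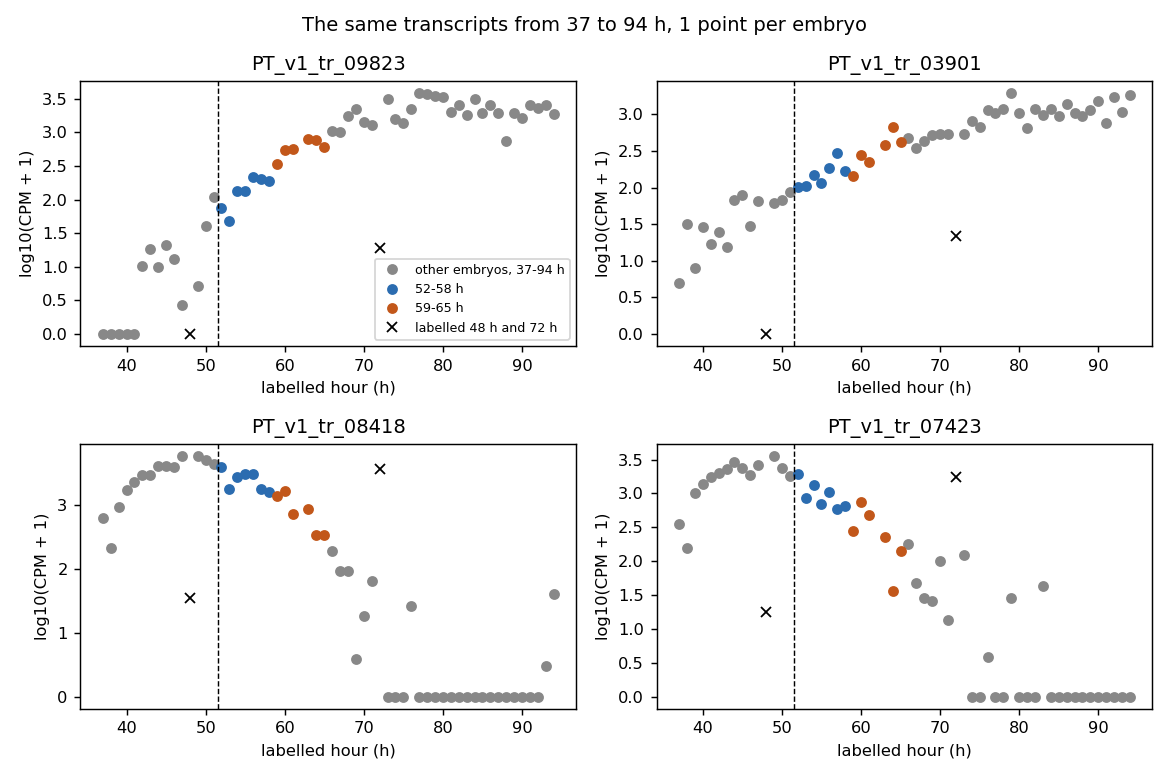
log10 of CPM + 1 (y) against the labelled hour (x) for the same 4 transcripts from 37 to 94 h, without the library labelled 62 h; each point is an embryo, blue for 52-58 h, orange for 59-65 h and grey for the rest, crosses mark the libraries labelled 48 h and 72 h, and the dashed line parts embryos to number 50 from those numbered 51 and higher. PT_v1_tr_09823 and PT_v1_tr_03901 are higher, and PT_v1_tr_08418 and PT_v1_tr_07423 lower, at 59-65 h than at 52-58 h on average. Most crosses lie away from their neighbours, as with PT_v1_tr_08418 at 33.8 CPM (48 h) and 3726 CPM (72 h). That of PT_v1_tr_09823 at 48 h (0 CPM) lies near those of 47 h (1.67 CPM) and 49 h (4.15 CPM).

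A plainer reading asks which transcripts had no overlap at all between the windows, each of the 6 later embryos lying above, or below, each of the 7 earlier ones. This held for 15 of the 4454 transcripts (0.337%), 7 higher and 8 lower at 59-65 h. The 7 higher ones had log2 changes from 0.17 to 2.06 and window means reaching between 169 and 2161 CPM, and all 7 were detected in all 13 embryos. The 8 lower ones had log2 changes from -1.45 to -3.77, their earlier means lay between 22.6 and 563 CPM, and 4 of the 8 were detected in all 13 embryos. Apart from PT_v1_tr_09823 none of the 15 passed the window test, and 2 of the 7 higher and none of the 8 lower passed the hour trend.

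In the 9 embryos of 66-74 h, which that choice did not use, the median level was above the highest 52-58 h value for 7 of the 7 higher transcripts and below the lowest 52-58 h value for 8 of the 8 lower ones. Over all transcripts tested the same was true of 280 (6.29%) and 192 (4.31%). Without the library labelled 72 h the counts for the 15 were the same, beside 320 (7.18%) and 202 (4.54%) of all tested. The 52-58 h values enter both the choice and this second count, so the 2 are not independent. A median also cannot lie below a lowest value of 0. By the choice itself, the 8 lower transcripts had counts in every embryo of 52-58 h. Among the 3498 tested transcripts under 100 CPM, only 461 had a count in all 13 embryos. The 4.31% and 4.54% thus include transcripts that could not have met the criterion, and are no like-for-like measure for the 8. Nor are the 6.29% and 7.18% one for the 7 higher transcripts. Those 7 were chosen for lying above that same highest 52-58 h value. They had counts in all 13 embryos and later means of 169 to 2161 CPM. The 3498 under 100 CPM, most of the 4454 tested, had a median coefficient of variation of 88.5% within 52-58 h.

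Among the 956 tested transcripts with a mean of at least 100 CPM, 44 (4.6%) were lower and 34 (3.56%) higher by over 2-fold at 59-65 h in the fitted log2 change. This is a description by size, since of these PT_v1_tr_09823 alone passed the test. With single embryos left out, 38 to 59 were lower and 29 to 45 higher. Spike-in scaling, which shifted the median log2 change of all transcripts from -0.01 to -0.31, turned this into 84 lower and 11 higher. The other 878 stayed within 2-fold. Of the 34 higher ones, 33 could be tested over 37-51 h (the other library set) without the library labelled 48 h, and 14 of these (42.4%) rose there, beside 18.5% of the transcripts that stayed within 2-fold. Of the 44 lower ones 9 (20.5%) rose over the same hours and 1 fell. With that library in, 8 of the 33 (24.2%), 4.91% and 1 of the 44 rose. Over 66-94 h, 0 of the 34 higher ones passed as rises, beside 0.23% of those within 2-fold. Without the library labelled 72 h, 2 (5.88%) passed, beside 0.23%. Of the 44 lower ones, 31 passed the filter on low counts there, beside 870 of the 878 within 2-fold. Transcripts with too few counts at those hours, PT_v1_tr_08418 among them, could not be counted as falls. The shares of the lower ones therefore cover only those still counted there. Of the 31, 2 (6.45%) fell with or without the library labelled 72 h, beside 8.39% with it and 6.78% without. With it, slopes were positive for 55.9% of the higher ones, beside 24.4%. They were negative for 93.5% of the lower ones, beside 75.6%.

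**Figure D3:**
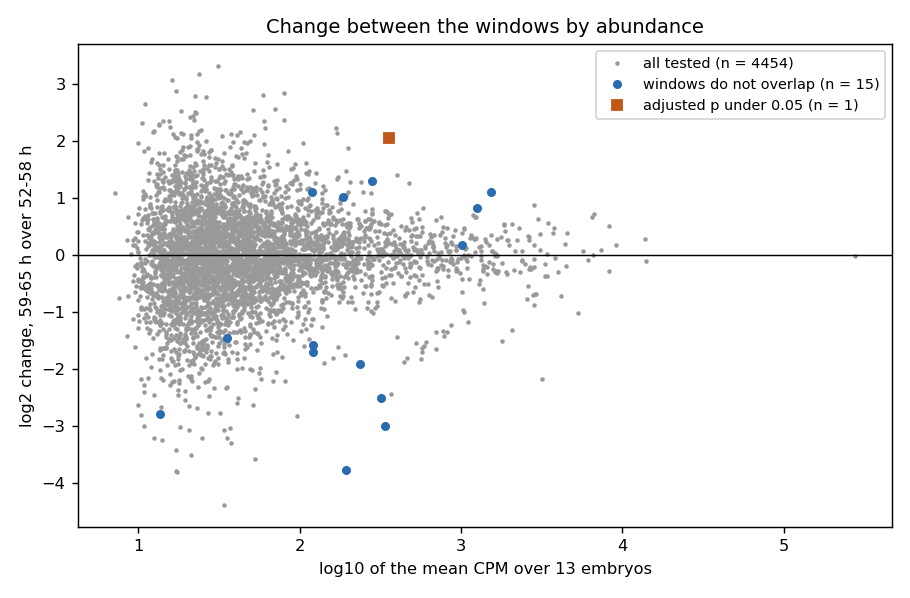
Fitted log2 change, 59-65 h over 52-58 h (y), against the log10 of the mean CPM over the 13 embryos (x) for 4454 transcripts; blue points are transcripts whose windows do not overlap and the square is PT_v1_tr_09823. The cloud narrows towards abundant transcripts, and the 15 marked transcripts lie within the range of changes seen among scarcer ones.

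How much the 13 embryos could show depended on abundance. Under 100 CPM, 3498 transcripts had a median coefficient of variation of 88.5% within 52-58 h and 88.4% within 59-65 h. From 100 to 1000 CPM, the 824 transcripts had medians of 43.9% and 41.9%, and the 132 transcripts over 1000 CPM had 24.5% and 26.7%. The median standard error of the log2 change fell from 1.25 through 0.41 to 0.22 across these classes. The 95% interval stayed within 4-fold in either direction for 435, 702 and 125 transcripts of the 3 classes, and within 2-fold for 3, 269 and 95. Over all 4454, it excluded a change of 4-fold or more for 1262 (28.3%). For the other transcripts, PT_v1_tr_09823 among them, the interval reached a change of 4-fold or more.

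Detection varied from embryo to embryo in the same way. Only 1295 of 10908 transcripts had a count in all 13 embryos, 861 had none in any, and the remaining 8752 were present in some and absent from others. Transcripts seen in all 13 had a median mean level of 147 CPM, and those seen in 12 one of 53.4 CPM. High level in an embryo did not ensure detection in the rest: of 2497 transcripts over 100 CPM in at least 1 embryo, 674 had no count in 3 or more of the others. No transcript was present in all embryos of one window and absent from all of the other.

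**Figure D4:**
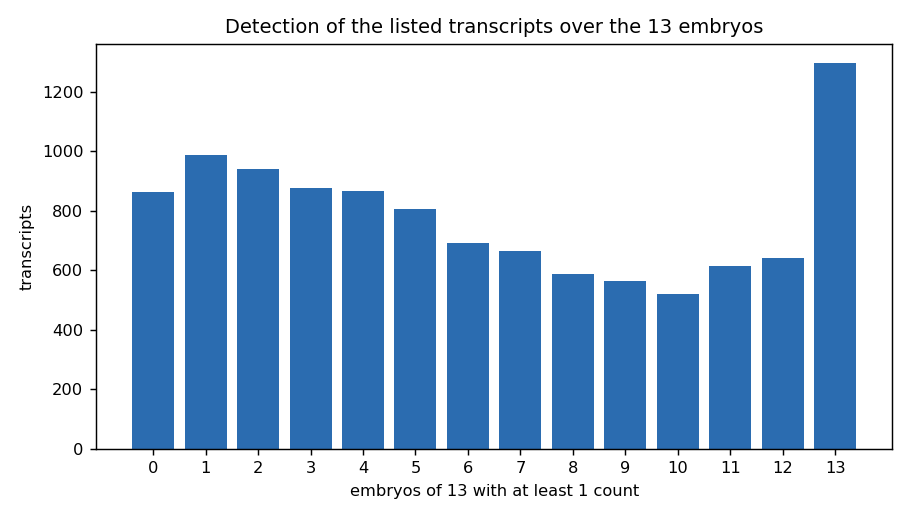
Number of transcripts (y) by the number of the 13 embryos in which they had at least 1 count (x). The tallest bar is that of the 1295 transcripts found in all 13, while 8752 transcripts were found in 1 to 12 embryos.

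The most abundant transcripts kept close to their earlier levels. PT_v1_tr_02502 alone held 26.6, 27.6 and 31.6% of the transcript counts at 52-58 h (lowest, median and highest of 7) and 24.8, 27.1 and 32.6% at 59-65 h (of 6). The means were 27.9 ± 1.70% (SD, n = 7) and 27.8 ± 2.96% (SD, n = 6), a difference of -0.11 percentage points (two-sided exact permutation test, p = 0.928; the smallest p these 1716 arrangements can give is 0.000583). Its fitted log2 change was -0.01 with a 95% interval of -0.18 to 0.16 (edgeR, adjusted p = 1.00).

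The next 4 by mean level were PT_v1_tr_02622, PT_v1_tr_07080, PT_v1_tr_01204 and PT_v1_tr_04659. PT_v1_tr_02622 had means of 14369 ± 2314 and 13664 ± 2638 CPM in the earlier and later window, and PT_v1_tr_07080 had 12404 ± 2080 and 15348 ± 4277 CPM (SD, n = 7 and n = 6). PT_v1_tr_01204 had 8700 ± 2737 and 9774 ± 2446 CPM, and PT_v1_tr_04659 had 8927 ± 2049 and 7468 ± 2330 CPM. Their windows overlapped. The 95% intervals of the log2 changes were -0.42 to 0.23, -0.11 to 0.68, -0.23 to 0.58 and -0.72 to 0.18 in that order, so each excluded a 2-fold difference, and none of the 4 passed (edgeR, adjusted p = 1.00 each). With spike-in scaling the sign turned for PT_v1_tr_07080 (-0.06) and PT_v1_tr_01204 (-0.08). The slope of PT_v1_tr_07080 over 52-65 h was 0.049 log2 units per hour (95% interval 0.0041 to 0.095). Its unadjusted p was 0.0342 (edgeR), and it did not pass after adjustment. In the other library set PT_v1_tr_07080 was lower, at 3596 ± 1483 CPM at 37-42 h (SD, n = 6) and 7085 ± 1500 CPM at 43-51 h without the library labelled 48 h (SD, n = 8; 6427 CPM with it), and it rose over 37-51 h without that library (0.14 log2 units per hour; edgeR, adjusted p = 2.53e-05, against 0.0828 with it).

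Summary measures of whole libraries did not separate the windows beyond their spread. The 10 most abundant transcripts together held 35.4 ± 1.57% of the counts at 52-58 h and 36.5 ± 2.14% at 59-65 h (exact permutation test, p = 0.322). The difference of 1.09 percentage points was 0.34 without the 63 h embryo and 0.032 for the 50 most abundant transcripts. Transcript counts per spike-in count, a measure of RNA yield relative to the added RNA, were 13.6 ± 3.99 and 11.1 ± 1.79 (p = 0.164, exact permutation test). The 58 h embryo had the highest ratio, 22.4, and without it the difference of -2.51 became -1.03. After each embryo was thinned to 388339 counts, 5224 ± 1116 and 5017 ± 590 transcripts were expected to be detected (p = 0.710, exact permutation test). These 4 tests and the distance test below formed 1 family, in which the lowest adjusted p was 0.411.

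Profiles of the 2000 most variable transcripts were only slightly farther apart between windows than within them. These 2000 were drawn from all 10908 transcripts, without the filter on low counts. The mean Euclidean distance on log2 CPM was 142 between embryos of different windows and 140 between embryos of the same window. The difference was 1.66 (one-sided exact permutation test, p = 0.0903). On all transcripts that passed the filter it was 1.61 (p = 0.163, same test). On the 1000 transcripts with the highest mean CPM, a choice made after seeing the data, the difference was 2.59 (p = 0.00524, exact permutation test). On the 2000 transcripts it also passed without the embryo of 54 h (p = 0.0498), 56 h (p = 0.00866) or 58 h (p = 0.00433), each by the same exact test. It did not pass without any other single embryo, with p from 0.0693 (57 h left out) to 0.279 (63 h left out) in that test. Leaving out an embryo of 59-65 h gave p of 0.153 or more.

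Among the components of these profiles, the second followed the hour and the first did not. The first component held 13.0% of the variance, and its correlation with the hour was r = 0.20 (permutation p = 0.552) and rho = 0.12 (permutation p = 0.712) over the 13 embryos. It was lowest in the 56 h and 63 h embryos, which had the smallest totals, and its correlation with the log2 total was r = 0.73 (permutation p = 0.0142, adjusted 0.0378) and rho = 0.42 (p = 0.152). The second component held 11.1% of the variance. Its correlation with the hour was r = 0.90 (permutation p = 3e-05, adjusted p = 0.00024) and rho = 0.93 (permutation p = 1e-05, the smallest that 100000 resamples can give; adjusted p = 8e-05), and without the embryos of 52 and 65 h r was 0.86. With the log2 total its r was -0.15 (permutation p = 0.631).

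Within the windows the second component had r = 0.85 with the hour among the 7 earlier embryos (exact permutation p = 0.0175) and r = 0.66 among the 6 later ones (exact permutation p = 0.153). On the 1000 transcripts with the highest mean CPM, the second component again followed the hour (r = 0.76, adjusted permutation p = 0.0121), with r = 0.56 and 0.53 within the windows (exact permutation p = 0.190 and 0.294). The first had r = 0.46 (adjusted permutation p = 0.185) and rho = 0.76 (adjusted permutation p = 0.0107). In all, 8 relations were computed, and the adjustment runs over them.

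**Figure D5:**
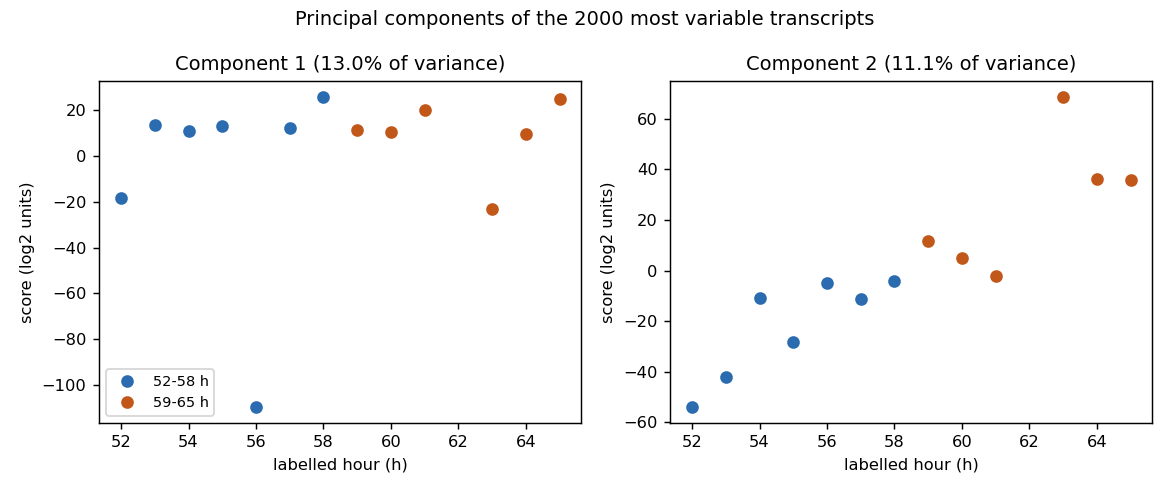
Scores in log2 units on the first and second principal component (y) against the labelled hour (x) for the 13 embryos, blue for 52-58 h and orange for 59-65 h. The first component sets the 56 h embryo apart (score -110), and the second runs from -54.0 at 52 h to 35.9 at 65 h, with its highest score, 68.8, at 63 h.

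Other steps of the course were tested in the same way. Between 59-65 h and 66-74 h (n = 9) none of 4925 transcripts passed (0%; edgeR, 93 at an unadjusted p under 0.05), nor without the library labelled 72 h (135 at an unadjusted p under 0.05). No transcript passed a test of whether this step differed from the one between 52-58 h and 59-65 h (0 of 6268, 0%; edgeR, 197 at an unadjusted p under 0.05). Between 66-74 h and 75-84 h 20 of 3830 passed (0.522%, 3 higher and 17 lower), and without the library labelled 72 h 15 of 4059 (5 higher and 10 lower). Between 37-42 h and 43-51 h none of 6733 passed (0%; edgeR, 660 at an unadjusted p under 0.05), and 201 of 6607 passed without the library labelled 48 h, 160 higher and 41 lower. The common biological coefficient of variation was 1.22 for 52-65 h, 1.36 for 59-74 h (1.30 without the library labelled 72 h) and 1.25 for 66-84 h (1.30 without it). It was 0.60 for 37-51 h (0.55 without the library labelled 48 h), but those embryos belong to the other library set, so stage and library set cannot be told apart in this contrast.

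Side by side, the steps into and out of 59-65 h share the 6 embryos of that window, so their values are not independent. PT_v1_tr_09823 had log2 changes of 2.06 into the window and 1.18 out of it (standard errors 0.34 and 0.55), and the second did not pass (edgeR, adjusted p = 1.00). Without the library labelled 72 h the second was 1.36 with a standard error of 0.24 (edgeR, adjusted p = 0.0598). PT_v1_tr_03911 had -1.90 and 1.02 (standard errors 0.38 and 0.60; 0.78 for the second without the library labelled 72 h), with means of 358, 93.7 and 211 CPM at 52-58, 59-65 and 66-74 h (183 CPM without the library labelled 72 h). The difference between its 2 steps was 2.92 log2 units with a standard error of 0.98 (edgeR, adjusted p = 0.413), and 2.71 without the library labelled 72 h (0.465).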

How the data were processed

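The authors deposited raw counts (whole numbers, 1 column per embryo, all 97 matched to a sample). The submitters' processing notes name HTSeq 0.5.4p3, Bowtie2 2.1.0 and CASAVA 1.8; their roles are not given in the sources used here. No molecular identifiers are named, so counts can hold amplification copies. The 92 spike-ins and 5 summary rows stayed out of totals and tests; reads not aligned made up 50.7 to 57.6% of a library's counts, reads in no feature 2.65 to 3.12% and spike-ins 1.70 to 4.16%. No pair of embryos within a window (36 pairs) had identical counts, and each pair differed by more than sampling noise (chi-square per degree of freedom 26.1 or more).

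The main test was edgeR's quasi-likelihood test (version 4.0.16 in R 4.3.3, robust, filterByExpr and TMM), fitted to the 13 embryos or to those of the windows or hours named. Calls needed an adjusted p under 0.05 over all transcripts tested; a standard error is the size of the log2 change divided by the root of its F value. The pipeline was tested on simulated counts. DESeq2 1.42.0 and limma 3.58.1 were alternatives. Printed CPM values are counts over the transcript total. Components and distances used log2 CPM with a prior count of 2; the sign of a component is arbitrary and was set to rise with the hour. Single values were compared by exact permutation over the 13 embryos, correlations with 100000 resamples (Python 3.11.15 with scipy 1.17.1, numpy 2.4.6, matplotlib 3.10.9 and pandas 2.3.3). Named by rule were the transcripts with the largest called change in each direction (at least 50 CPM), or where none was called the one with the lowest p, and the 5 most abundant; 4 more came from the hour trend. Windows, members and tests were chosen with earlier results of these data known. Marker lists were not used, because the files give no gene names.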

Additional observations from a re-analysis of the deposited data

Results flagged for a closer look

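Of 28 sets of 6 or 7 values examined (totals, summary measures and the other 9 named transcripts in each window), 6 held a value standing far from the others of its window; chance gives about 1 in 20. The 58 h embryo had a total of 2577933 counts and 22.4 transcript counts per spike-in count, the highest of its window in both. The 56 h embryo had 31.6% of its counts in PT_v1_tr_02502, the highest of its window, and the lowest total. PT_v1_tr_03901 stood at 299 CPM at 57 h, above the other embryos of 52-58 h. At 59-65 h PT_v1_tr_02622 was highest at 65 h (18897 CPM) and PT_v1_tr_04659 at 59 h (11851 CPM).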

How the results depend on the processing

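The count of 1 call between the windows became 0 with spike-in scaling, the log2 total as covariate, 1 fit over 52-94 h or the 62 h library included, 2 with the hour within the window as covariate or hours 57 to 60 left out, 3 with no filter, 35 with DESeq2, and 0 to 1 with single embryos left out. The 6 hour calls became 13 with DESeq2 size factors, 14 with total-count scaling, 320 with no filter, 35 with the stricter filter (8 rises, 27 falls), 62 with DESeq2, 0 with the 62 h library, and 2 to 21 with single embryos left out; the counts were 2 without the embryo of 52, 56 or 58 h, 3 without that of 54, 61 or 63 h, 14 without that of 53 h and 21 without that of 57 h. Without a filter, 3 transcripts passed between 66-74 h and 59-65 h and 1428 between 75-84 h and 66-74 h. Without the library labelled 48 h, 201 passed between 43-51 h and 37-42 h and 476 (315 rises, 161 falls) changed with the hour over 37-51 h, an alternative chosen after seeing the data. The cause of these moves was not tested.

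Direction reversed for PT_v1_tr_07080 (-0.057) and PT_v1_tr_01204 (-0.078) with spike-in scaling, for PT_v1_tr_01204 with the 62 h library (-0.057) and for PT_v1_tr_02622 with hours 57 to 60 left out (0.058), each a log2 change that passed no test. With single embryos left out, the log2 change of PT_v1_tr_02502 ran from -0.059 to 0.015, its share difference from -1.08 to 0.50 points, that of the 10 most abundant from 0.34 to 1.59 points, the difference in detected transcripts from -513 to 101 and the distance difference from 0.78 to 2.42. On the 1000 most abundant transcripts the distance difference was 2.59.

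The signs of the 4 transcripts named from the hour trend over 52-65 h were kept in all alternatives run. Beside the losses given with their values, the window call of PT_v1_tr_09823 ended with the log2 total as covariate (adjusted p = 0.0814), in 1 fit over 52-94 h (0.0688) and with the 62 h library (0.999). The slope call of PT_v1_tr_03901 ended with the log2 total as covariate (0.0697), and all 4 slope calls ended with the 62 h library (0.280 to 1.00). No paired analysis was possible because the labels give no replicate numbers shared between windows. With 1 embryo per hour, hour and embryo cannot be told apart, and under 100 CPM the interval reached 4-fold for most transcripts.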
